A study of Mus musculus with 51 samples.

Results

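The 9 genes described here encode the fibrinogen chains (Fga, Fgb, Fgg), the clotting factors prothrombin (F2), factor V (F5), factor IX (F9) and factor X (F10), plasminogen (Plg) and antithrombin (Serpinc1). They were taken by symbol from 6 tissue tables of messenger RNA values that together list 14606 genes. The libraries, 51 in all from 10 animals, came from male C57Bl6 mice made obese by diet. Roux-en-Y gastric bypass (RYGB), in which food passes from a small stomach pouch into the jejunum, was compared 9 weeks after surgery with a sham operation. All mice went from a liquid elemental diet back to high-fat food, sham mice were kept at matched weight by giving them less food, and tissue was collected from fasted animals. Effects of the bypass and of rationing the sham group cannot be told apart. The RYGB and sham libraries numbered 5 and 4 in liver, 4 and 5 in duodenum, 4 and 5 in jejunum, 2 and 5 in ileum, 4 and 5 in subcutaneous white adipose tissue (WAT), and 4 and 4 in gastrocnemius muscle. Gut samples were scraped villi, and most animals gave several tissues. One label field of the RYGB muscle libraries names a sham source, while their titles and surgery field name RYGB, which was followed.

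Fibrinogen is a plasma protein made by hepatocytes from pairs of 3 chains, and thrombin turns it into the fibrin of a clot. The liver also makes most clotting factors, as well as antithrombin, which inhibits thrombin, and plasminogen, whose active form plasmin dissolves fibrin. The fibrinogen chain genes are classical acute phase genes: in hepatocytes, interleukin-6 acting through STAT3 raises their transcription together. Prothrombin and factors IX and X need vitamin K for their maturation; factor V is the cofactor with which factor X activates prothrombin.

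On mouse chromosome 3 (GRCm38) the fibrinogen genes lie side by side within 42140 bases, at chr3:83007724-83015049 for Fgg (plus strand), chr3:83026076-83033627 for Fga (plus strand) and chr3:83040141-83049863 for Fgb (minus strand). Serpinc1 (chr1:160978585-161005863) and F5 (chr1:164151838-164220277) lie on chromosome 1, F2 at chr2:91625320-91636414, F10 at chr8:13037308-13056676, Plg at chr17:12378608-12419385 and F9 at chrX:59999464-60030759. Their Ensembl identifiers are ENSMUSG00000028001 (Fga), ENSMUSG00000033831 (Fgb), ENSMUSG00000033860 (Fgg), ENSMUSG00000027249 (F2), ENSMUSG00000026579 (F5), ENSMUSG00000031138 (F9), ENSMUSG00000031444 (F10), ENSMUSG00000059481 (Plg) and ENSMUSG00000026715 (Serpinc1). Because the 3 fibrinogen genes moved together in liver, the 150 bases before their RefSeq starts (GRCm38.p6) are shown 5′ to 3′, at chr3:83007574-83007723 (plus) for Fgg, chr3:83026003-83026152 (plus) for Fga and chr3:83049864-83050013 (minus) for Fgb. Capitals mark CTGGGA, the core letters of the element through which interleukin-6 acts on such genes.
Fgg: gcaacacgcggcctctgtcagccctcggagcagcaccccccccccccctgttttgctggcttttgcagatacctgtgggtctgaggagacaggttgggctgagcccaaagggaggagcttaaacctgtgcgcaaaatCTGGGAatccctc
Fga: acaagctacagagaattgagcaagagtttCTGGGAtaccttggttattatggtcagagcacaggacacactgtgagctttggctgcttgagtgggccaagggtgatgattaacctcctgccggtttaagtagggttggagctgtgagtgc
Fgb: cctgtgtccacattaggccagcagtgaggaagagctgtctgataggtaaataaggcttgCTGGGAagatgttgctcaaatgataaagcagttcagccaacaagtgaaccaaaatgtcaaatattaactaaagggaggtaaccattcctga

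Each of the 3 windows holds CTGGGA once on its own strand, beginning 13 bases before the start in Fgg, 121 in Fga and 91 in Fgb. On either strand these letters stand in 17.7% of the 32851 RefSeq promoter windows of this length. The longer form CTGGGAA, whose first 6 letters are CTGGGA, was searched on both strands of the 300 bases from 250 before to 50 after each start, where 11.1% of all windows hold it. It is present in Fgg and Fgb, not in Fga, and also in F9, on the opposite strand 82 bases before its start. In the same 300 bases, where 31.8% of all windows hold CTGGGA, that shorter form is also found in F10, F2 and F9 and not in F5 or Serpinc1. The letters GTTAAT, part of the site of the hepatocyte factor HNF1, were found on the strand opposite to the gene, 43 bases before the start of Fga and 29 before that of Fgb, and in F2 within the bases after its start, against 7.1% of all 300-base windows on either strand; F5, F9, F10, Fgg and Serpinc1 hold none in their windows. The RefSeq start of Fga lies inside the gene as placed above, so the end of its window, with the GTTAAT match, overlaps that gene, while the starts of Fgg and Fgb coincide. These matches are a description of the letters. RefSeq entries were found for 8 of the 9 genes; Plg had no entry.

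All 9 members were listed in the liver table, 6 in WAT and 2 each in duodenum, jejunum, ileum and muscle. Values are CPM as deposited, read counts scaled to a fixed total per library, and a table lists a gene only if it reached 1 CPM in as many libraries as the smaller group has, so a member that is not listed was below that level. A log2 fold change is the RYGB mean less the sham mean of log2(CPM + 1), given with its standard error (SE); this scale understates changes at low CPM. Adjusted p-values are from limma with Benjamini-Hochberg adjustment over all genes of a table, and rose or fell is used where they are below 0.05. The listed genes summed to 978879 to 993560 CPM per library. In 5 liver libraries (RYGB 2, 3 and 4, sham 1 and 2) the steps between low values put the depth at an estimated 4220000 to 5130000 counted reads; for the remaining 46 libraries no depth could be read. Over all genes the median log2 fold change was 0.26 in liver, 0.15 in duodenum and −0.16 in WAT, and 0.087, −0.0067 and 0.0047 in those tissues once libraries were rescaled by the median of ratios.

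In liver, the 3 fibrinogen chain genes rose after RYGB, by 2.46 to 3.72 on the log2 scale, and every RYGB library lay above every sham library for each of them. They were the only members called in liver: 3 of 9 rose and 0 fell, against 2.03% and 2.6% of the 10285 genes tested. The groups did not overlap for the 3 fibrinogen genes, which were higher, and for F5, which was lower, against 4.34% and 8.01% of all genes. The median log2 fold change of the 9 members was 1.22, and that of all genes was 0.26.

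Fga, which encodes the Aα chain, had 2390, 24584, 17569, 7213 and 2010 CPM in the 5 RYGB livers, against 991, 1359, 192 and 399 CPM in the 4 sham livers. RYGB 2 and 3 were highest and sham 3 lowest. The log2 fold change was 3.59 ± 0.79 (SE; limma adjusted p = 0.0392), with means of 10753 CPM in RYGB and 735 CPM in sham livers.

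Fgb, the Bβ chain gene, had 6817, 18587, 14146, 5574 and 3079 CPM in RYGB livers, against 2455, 2089, 913 and 904 CPM in sham livers. Its groups came closest, at RYGB 5 and sham 1, and did not overlap. Its log2 fold change was 2.46 ± 0.54 (SE; limma adjusted p = 0.0392). Fgg, the γ chain gene, had 2842, 32888, 17682, 7462 and 2248 CPM in RYGB livers, against 1233, 1449, 148 and 451 CPM in sham livers. The same RYGB and sham libraries stood at the extremes as for Fga, and the log2 fold change was 3.72 ± 0.84 (SE; limma adjusted p = 0.0421).

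Together the 3 chains took 1.21%, 7.61%, 4.94%, 2.03% and 0.734% of the counted reads of the 5 RYGB livers and 0.468%, 0.490%, 0.125% and 0.175% of those of the sham livers. The lowest RYGB liver stood above the highest sham liver, and RYGB 2 and 5 were the extremes among RYGB livers. The chains did not keep one ratio across libraries. The ratio of Fgb to Fga CPM was 0.756 to 0.805 in RYGB 2, 3 and 4, and 1.53 and 2.85 in RYGB 5 and 1, against 1.54 to 4.76 in sham livers. The ratio of Fgg to Fga was 1.01 to 1.34 in RYGB livers and 0.771 to 1.24 in sham livers, so these groups overlapped.

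**Figure D1:**
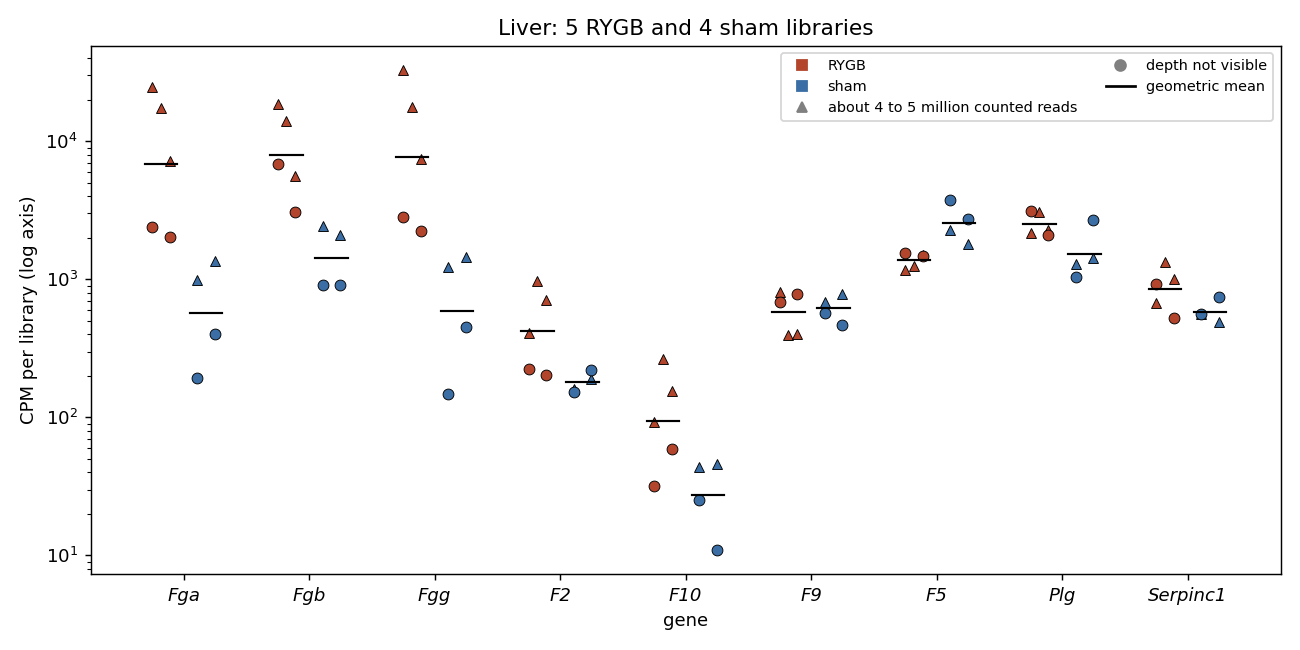
CPM of the 9 genes in each liver library on a log axis, RYGB (red) left of sham (blue); triangles are the 5 libraries of estimated depth, circles the libraries whose depth is unknown, and bars geometric means. For Fga, Fgb and Fgg all 5 RYGB libraries lie above all 4 sham libraries, and for F5 they lie below.

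The fibrinogen genes were also higher in RYGB livers within each class of depth. This had to be so, since all RYGB livers lay above all sham livers, so it is no test of depth. Among the 5 libraries of known depth, Fga had 7213 to 24584 CPM in 3 RYGB livers and 991 to 1359 CPM in 2 sham livers. Among the other 4, it had 2010 and 2390 CPM in RYGB livers and 192 and 399 CPM in sham livers. Groups were apart in both classes for Fgb and Fgg as well. The same held for F10, which was also higher, and for F5, which was lower. For F5 too it followed from groups that were apart over all livers, and for F10, whose groups overlapped there, it did not. Groups of so few libraries are easily apart, and the share of all genes apart within a class was not computed. With the depth class as a term, the log2 fold changes were 3.35 for Fga, 2.33 for Fgb and 3.46 for Fgg, and 6 members passed the test in place of 3, while 23.1% of all liver genes passed with that term. The calls of the 3 genes were lost when RYGB 2, 3 or 4 or sham 2, 3 or 4 was left out, with log2 fold changes of 2.15 to 4.15 and adjusted p of 0.066 to 0.15.

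Libraries also differed in how their values ran with gene length. The slope of each library's deviation on log2 exon length, over 7500 genes, was −0.26 to 0.012 in RYGB livers and 0.082 to 0.21 in sham livers, so the groups did not overlap. With that trend removed from each library, Fga rose by 3.17, Fgb by 2.11 and Fgg by 3.22 on the log2 scale (limma adjusted p = 0.0338, 0.0371 and 0.0349). Sums of cell markers overlapped between the groups. Kupffer cell markers, 5 of 6 listed, summed to 82.1 to 904 CPM in RYGB livers and 21.8 to 133 CPM in sham livers, and hepatocyte markers, 10 of 10 listed, to 41286 to 120932 and 40523 to 54435 CPM. Albumin (Alb) itself had 18705 to 93630 CPM in RYGB livers and 27729 to 35255 CPM in sham livers. Per 1000 CPM of Alb, Fgb overlapped between the groups, with 59.5 in RYGB 4 and 73.2 in sham 1, while Fga and Fgg did not. Fewer cells of a type and less RNA per cell cannot be told apart in bulk tissue, and the part of the cell markers in the fibrinogen values was not tested.

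**Figure D2:**
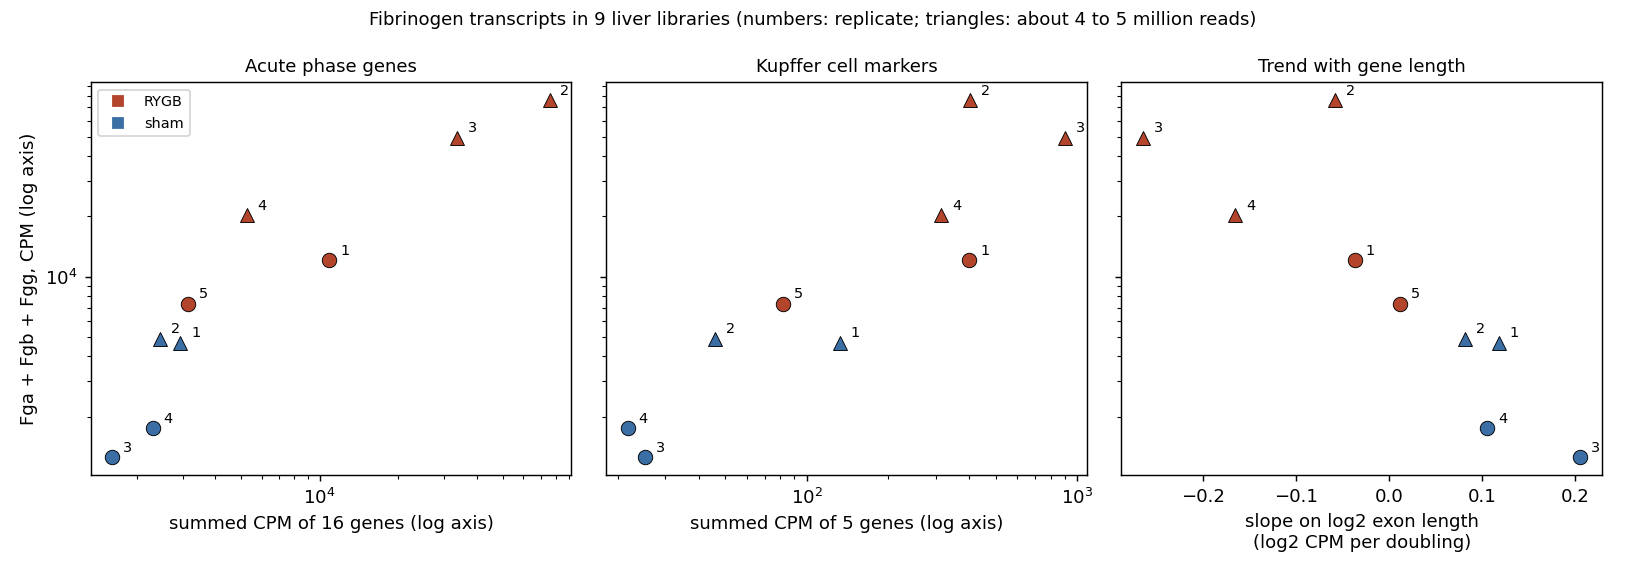
Summed CPM of Fga, Fgb and Fgg in the 9 liver libraries (log axis), against the summed CPM of 16 acute phase and interleukin-6 genes, of 5 Kupffer cell markers, and the slope of the library on log2 exon length; RYGB is red, sham blue, and triangles are libraries of estimated depth. RYGB 2 is highest in fibrinogen and acute phase transcripts, and the sham livers have the 4 highest length slopes.

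F2, prothrombin, had 226, 409, 973, 710 and 204 CPM in RYGB livers, against 162, 191, 152 and 222 CPM in sham livers. RYGB 2, 3 and 4 stood well above all sham livers, RYGB 1 just above the highest of them, and RYGB 5 below it. The log2 fold change of 1.22 ± 0.44 (SE) did not pass the test (limma adjusted p = 0.0891).

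F10, factor X, had 31.6, 93.0, 264.7, 155.9 and 59.1 CPM in RYGB livers, against 43.8, 45.9, 25.3 and 10.9 CPM in sham livers. It was above the sham range in 4 of 5 RYGB livers, with RYGB 1 inside it. Its log2 fold change was 1.74 ± 0.58 (SE; limma adjusted p = 0.0768). With the depth class as a term both genes passed the test, at 1.14 for F2 and 1.57 for F10 (limma adjusted p = 0.0404 and 0.0110). F10 also passed with that term and median-of-ratios scaling (1.40, limma adjusted p = 0.0149), and F2 did not (0.95, limma adjusted p = 0.0961). In the libraries of estimated depth alone F2 stood at 1.90 (limma adjusted p = 0.0374), and in the others at 0.22 (limma adjusted p = 0.726), where its groups overlapped.

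F9, factor IX, had 688, 810, 393, 399 and 777 CPM in RYGB livers, against 687, 789, 569 and 470 CPM in sham livers. Both groups covered much the same range. The log2 fold change was −0.08, with a 95% interval of −0.78 to 0.62.

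F5 ran the other way. It had 1557, 1167, 1249, 1500 and 1466 CPM in RYGB livers, against 2294, 1791, 3775 and 2750 CPM in sham livers, and the groups did not overlap. The log2 fold change of −0.89 ± 0.31 (SE) did not pass the test (limma adjusted p = 0.0806). It was −0.85 with the depth class as a term and passed there (limma adjusted p = 0.0346), and −1.01 with the length trend removed, where it did not (limma adjusted p = 0.104). F5 has 7430 bases of annotated exon, against 2093 to 3810 for the fibrinogen genes. Serpinc1, with 8546, is longer still, and its log2 fold change was above 0, at 0.55.

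Of the genes that restrain or dissolve clots, Plg had 3129, 2182, 3068, 2281 and 2090 CPM in RYGB livers, against 1293, 1439, 1040 and 2711 CPM in sham livers. Sham 4 lay inside the RYGB range and the other sham livers below it. The log2 fold change was 0.73 ± 0.34 (SE; limma adjusted p = 0.153). Serpinc1 had 922, 678, 1346, 1002 and 527 CPM in RYGB livers, against 562, 489, 557 and 743 CPM in sham livers. Its groups overlapped, and the log2 fold change was 0.55 ± 0.32 (SE; limma adjusted p = 0.233).

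**Figure D3:**
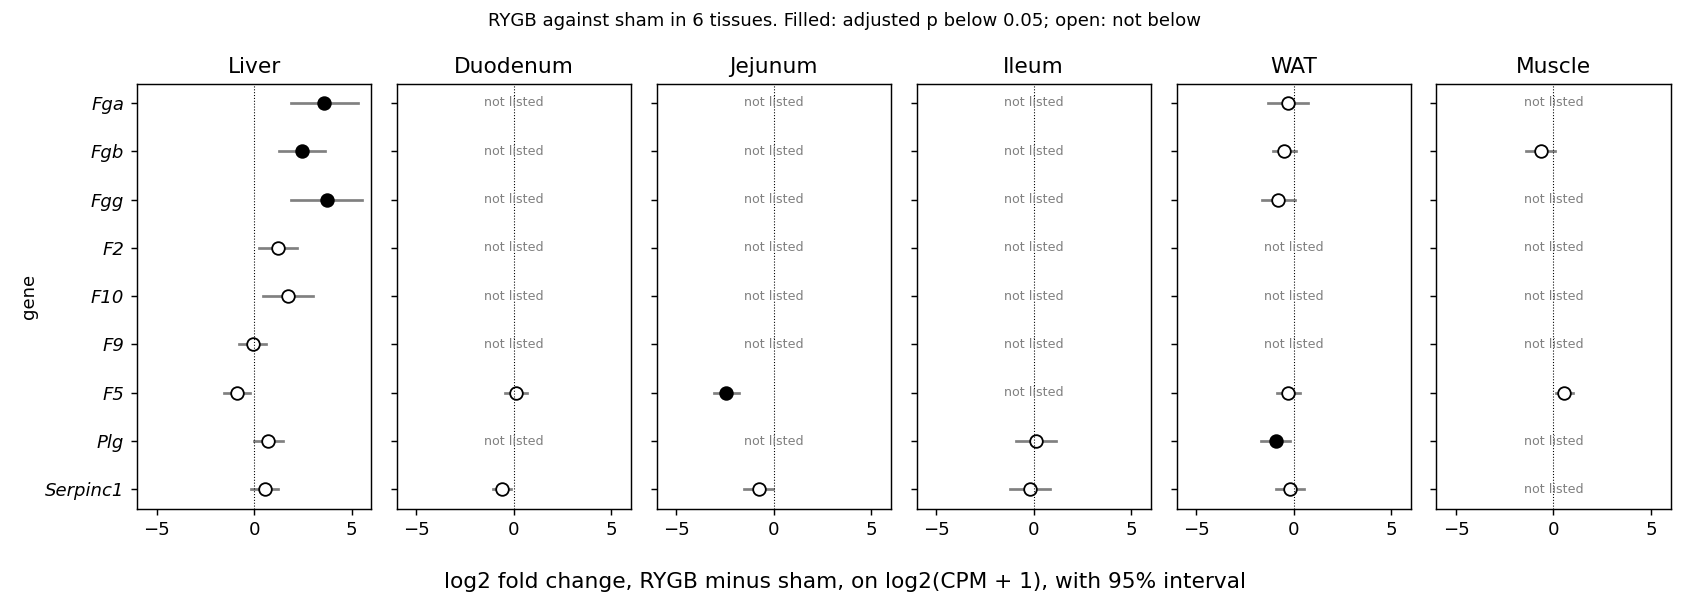
Log2 fold change of each gene (RYGB minus sham, log2(CPM + 1) scale) with its 95% interval, 1 panel per tissue; filled points have a limma adjusted p below 0.05, and genes absent from a table are marked as not listed. Filled points are the 3 fibrinogen genes in liver, F5 in jejunum and Plg in WAT.

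Per kilobase of the union of annotated exons, which is at least as long as any single transcript, the order of the members differed between the groups. In RYGB livers Fgg averaged 6032 CPM per kilobase, Fga 3572, Fgb 2530, Plg 687, F9 224, F5 187, F2 110, Serpinc1 105 and F10 44.3. In sham livers the averages were 437 for Plg, 417 for Fgb, 392 for Fgg, 357 for F5, 244 for Fga, 230 for F9, 68.8 for Serpinc1, 39.5 for F2 and 11.5 for F10. In RYGB livers the library ranges of neighbours in this order overlapped, except for Plg (563 to 843) above F9 (144 to 296). In sham livers those from Plg down to F9 overlapped, while F9 (172 to 289), Serpinc1 (57.2 to 86.9), F2 (33.0 to 48.4) and F10 (3.99 to 16.8) were apart. Over all liver libraries Fgg ranked 7, Fga 11 and Fgb 19 of 10261 genes by mean CPM per kilobase, and F10, the lowest member, ranked 1203.

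The liver genes whose values ran most like those of the fibrinogen genes were taken by Pearson's correlation with the mean log2 value of Fga, Fgb and Fgg, over the 9 libraries and 5924 genes with a mean of at least 10 CPM. The libraries share the contrast of the operations and their depth classes, so the correlation is a description. The 8 highest were Slc39a14 (0.992), a zinc transporter, Cobl (0.992), Hpx (0.992), which encodes the haem scavenger hemopexin, Tmem176a (0.987), Kng1 (0.986), the precursor of bradykinin, Itih3 (0.984), Prg4 (0.980) and Serpina3m (0.980). After the group means were removed these 8 stood at 0.953 to 0.978. The 4 lowest were Sgpp1 (−0.984), Fbxo3 (−0.983), Necab1 (−0.983) and Zkscan8 (−0.976). Among the other members the correlation was 0.825 for F10, 0.787 for F2, 0.57 for Plg, 0.566 for Serpinc1, −0.052 for F9 and −0.938 for F5. F5 kept −0.809 within groups, and Plg 0.035.

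The genes that flank the fibrinogen cluster were examined in the same liver libraries. Plrg1, which encodes a splicing factor 5658 bases beyond Fgb, averaged 11.4 CPM in RYGB and 2.18 CPM in sham livers (log2 fold change 1.79, limma adjusted p = 0.0571). Lrat, a retinol-esterifying enzyme 103750 bases before Fgg, averaged 57.6 CPM in RYGB and 84.2 CPM in sham livers (−0.55, limma adjusted p = 0.236). Neither flanking gene passed the test. Their correlation with the mean log2 value of Fga, Fgb and Fgg was 0.895 for Plrg1 and −0.683 for Lrat. After the group means were removed it was 0.714 and −0.486.

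The other genes of clotting and of the acute phase were read from lists. Of 16 listed genes of interleukin-6 signalling and the acute phase, 2 rose and 0 fell in liver, against 2.03% and 2.6% of all genes. All 16 had a log2 fold change above 0, with a median of 2.78. Orm1, which encodes the plasma protein orosomucoid, had 1313, 6781, 2678, 504 and 169 CPM in RYGB livers, against 38.8, 52.1, 4.4 and 6.0 CPM in sham livers (6.10 ± 1.03, limma adjusted p = 0.0302); its near-identical family copies make its share of reads uncertain. Hpx had 1252, 9179, 7874, 1691 and 330 CPM in RYGB livers, against 269, 304, 15.8 and 48.5 CPM in sham livers (4.59 ± 1.07, limma adjusted p = 0.0441). The list summed to 10889, 75618, 33482, 5263 and 3137 CPM in RYGB livers and to 2940, 2454, 1617 and 2305 CPM in sham livers. RYGB 2, highest in liver for Fga, Fgb and Fgg, was highest there too. Haptoglobin (Hp), the most abundant gene of the list, overlapped between groups (log2 fold change 1.19 ± 0.60, limma adjusted p = 0.177).

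Of 9 other clotting factor genes listed in liver, Kng1 rose and none fell; Kng1 had 1416, 5150, 3964, 3612 and 945 CPM in RYGB livers, against 568, 674, 153 and 269 CPM in sham livers (2.82 ± 0.57, limma adjusted p = 0.0355). F13b, a subunit of the fibrin-stabilising factor, had a log2 fold change of −1.09 ± 0.39 (limma adjusted p = 0.0855). The median log2 fold change of these 9 genes was 1.86, with 6 of them above 0. Of 7 listed fibrinolysis genes, Cpb2, whose product protects fibrin from plasmin, rose by 3.20 ± 0.69 (limma adjusted p = 0.0392), with 495 to 4412 CPM in RYGB and 43.9 to 340 CPM in sham livers. Hrg, histidine-rich glycoprotein, overlapped (0.91 ± 0.36, limma adjusted p = 0.110). None of 12 anticoagulant and inhibitor genes passed the test, and the median of the list was 1.37; Pzp, an abundant protease inhibitor, stood at 1.83 ± 0.65 (limma adjusted p = 0.0844) and Apoh at −0.20 ± 0.30. None of 6 genes of the vitamin K cycle and factor secretion passed (median 0.47), nor either of 2 tissue factor and thrombin receptor genes (median 0.081), nor any of 12 hepatocyte transcription factor genes (median −0.17). Fgl1, a fibrinogen-like gene of hepatocytes, had 682 to 6652 CPM in RYGB and 396 to 607 CPM in sham livers and did not pass (2.07 ± 0.64, limma adjusted p = 0.0655).

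Among cell type lists in liver, 3 of 5 Kupffer cell markers rose (Clec4f, Timd4 and Cd5l, log2 fold changes 3.42, 2.38 and 2.71), as did 2 of 5 macrophage markers (Csf1r 3.29, Lyz2 3.51), 1 of 8 sinusoidal endothelial markers (Pecam1 2.22) and 1 of 10 hepatocyte markers (Ahsg 2.25). Of 5 stellate cell markers, Reln fell (log2 fold change −1.41). Over all liver genes 2.03% rose and 2.6% fell. Adgre1 was not listed among the Kupffer markers, and no pancreatic acinar marker was listed in liver.

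In the gut the listed members were F5 and Serpinc1 in duodenum and jejunum, and Plg and Serpinc1 in ileum, all at 12.1 CPM or less. F5 fell in jejunum: it had 1.0, 0.3, 0.5 and 1.1 CPM in RYGB jejunum, against 8.5, 9.4, 8.5, 12.1 and 4.1 CPM in sham jejunum. The groups did not overlap. F5 reached 1 CPM, the level for listing, in all sham libraries but only in RYGB 1 and 4. It was thus listed through the group where it was higher, and its RYGB values lie near that level. The log2 fold change was −2.43 ± 0.29 (SE; limma adjusted p = 0.0027), and 1 of 2 members fell, against 6.29% of the 11021 genes tested, with 6.75% of genes apart and lower. F5 stayed below the threshold in every alternative run, with log2 fold changes of −2.64 to −2.30 when any 1 library was left out.

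In the same jejunal libraries Alb had 69.3, 4.6, 11.8 and 2.3 CPM in RYGB, against 24.3, 8.0, 2.2, 12.6 and 146.8 CPM in sham samples. The sham library richest in Alb, sham 5, was the lowest of its group for F5 and the highest for Serpinc1. The part of hepatocyte transcripts in the F5 and Serpinc1 values was not tested. Serpinc1 had 2.4, 1.6, 0.8 and 0.5 CPM in RYGB jejunum, against 2.9, 2.7, 2.0, 1.7 and 5.8 CPM in sham jejunum. These values overlapped, and the log2 fold change was −0.78 (limma adjusted p = 0.135).

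Other clotting genes in jejunum moved in both directions. Pros1, which encodes the anticoagulant protein S, fell to 7.4 to 33.4 CPM in RYGB, against 55.2 to 120.5 CPM in sham samples (−2.56 ± 0.40, limma adjusted p = 0.00666), the 1 gene of 8 in its list. Lman1, a cargo receptor that carries factors V and VIII from the endoplasmic reticulum, had 86.6, 107.8, 88.1 and 249.6 CPM in RYGB, against 302.7, 293.2, 361.0, 306.1 and 350.7 CPM in sham jejunum, and fell by 1.42 on the log2 scale (limma adjusted p = 0.0131). It was the 1 of 6 vitamin K cycle and secretion genes that passed, while Mcfd2, its partner in that transport, stood at 0.29 (limma adjusted p = 0.29). Of 5 fibrinolysis genes 3 rose, against 6.32% of all genes: S100a10 (1.12) and Anxa2 (1.13), which form a plasminogen-binding complex on the cell surface, and Plaur (1.71), the urokinase receptor.

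In duodenum F5 had 5.0, 3.8, 3.0 and 4.3 CPM in RYGB, against 4.9, 4.6, 2.3, 4.6 and 2.5 CPM in sham samples. The groups overlapped (log2 fold change 0.10; −0.041 after median-of-ratios scaling). Serpinc1 had 1.7, 2.2, 1.4 and 1.4 CPM in RYGB, against 2.3, 3.4, 3.1, 3.6 and 2.9 CPM in sham duodenum. All RYGB libraries were lower, as were 1.69% of all genes, but the log2 fold change of −0.60 did not pass (limma adjusted p = 0.126). Hepatocyte markers, 3 of 10 listed, summed to 3.3 to 8.7 CPM in RYGB and 8.6 to 14.8 CPM in sham duodenum. Pancreatic acinar markers, 8 of 8 listed, summed to 14.4 to 12096 CPM in RYGB and to 52010, 75468, 49080, 681 and 43.5 CPM in sham duodenum. The part of either in the Serpinc1 values was not tested. Neither member was called, against 0.348% of the 10930 genes.

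In ileum, with 2 RYGB libraries, Plg had 1.1 and 0.4 CPM in RYGB, against 1.1, 0.6, 0.5, 0.2 and 0.6 CPM in sham samples, and Serpinc1 0.8 and 0.3 CPM, against 0.2, 1.0, 0.6, 1.0 and 1.1 CPM. Both overlapped, near the level at which a gene enters the table. No gene of the 12041 passed the limma test there (0%), and 438, or 3.64%, had an unadjusted limma p below 0.05.

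**Figure D4:**
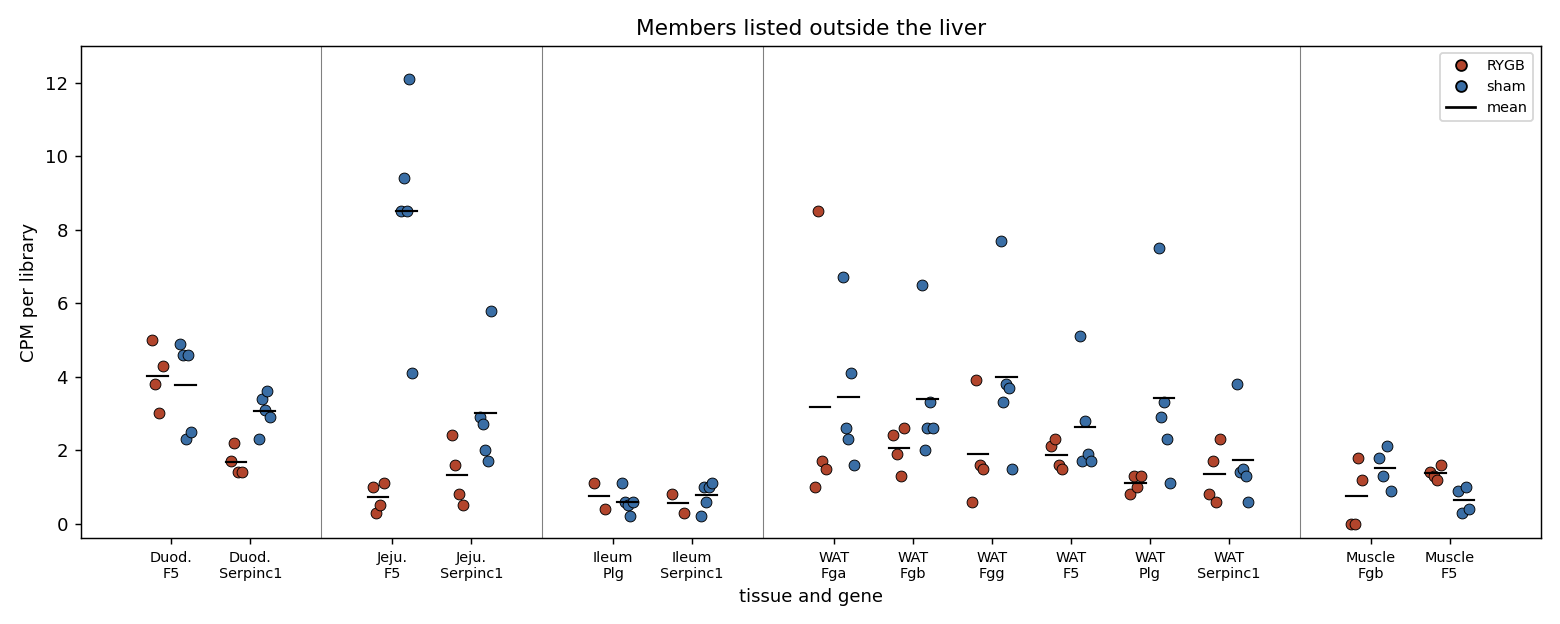
CPM per library of the members listed outside the liver, RYGB (red) left of sham (blue), bars at the mean. F5 in jejunum has 4 RYGB libraries at 0.3 to 1.1 CPM and 5 sham libraries at 4.1 to 12.1 CPM, and sham 1 is the highest sham WAT library for each of the 6 members listed there.

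WAT listed the fibrinogen genes at 8.5 CPM or less. Fga had 1.0, 8.5, 1.7 and 1.5 CPM in RYGB WAT, against 6.7, 2.6, 2.3, 4.1 and 1.6 CPM in sham WAT. Fgb had 2.4, 1.9, 1.3 and 2.6 CPM in RYGB WAT, against 6.5, 2.0, 2.6, 3.3 and 2.6 CPM in sham WAT. Fgg had 0.6, 3.9, 1.6 and 1.5 CPM in RYGB WAT, against 7.7, 3.3, 3.8, 3.7 and 1.5 CPM in sham WAT. All 3 overlapped, with RYGB 2 and sham 1 at the top for Fga. Their log2 fold changes were −0.30, −0.47 and −0.79, and none passed the test. With RYGB 2, the highest RYGB library for Fgg, left out, Fgg passed at −1.08 (limma adjusted p = 0.0394). Fgg reached 1 CPM, the level for listing, in all sham libraries but not in RYGB 1. It was thus listed through the group where it was higher, and its remaining RYGB values of 0.6 to 1.6 CPM lie near that level.

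Plg had 0.8, 1.3, 1.0 and 1.3 CPM in RYGB WAT, against 7.5, 2.9, 3.3, 2.3 and 1.1 CPM in sham WAT. Sham 5 lay inside the RYGB range and the other sham libraries above it. Plg reached 1 CPM, the level for listing, in all sham libraries but not in RYGB 1. It was thus listed through the group where it was higher, and its RYGB values lie near that level. Plg fell by 0.93 ± 0.34 on the log2 scale (limma adjusted p = 0.0496), the 1 of 6 members to pass, against 26.3% of the 12690 genes. The call was lost on leaving out any 1 library other than sham 5, with adjusted p of 0.0635 to 0.107, and after median-of-ratios scaling (limma adjusted p = 0.0785). F5 had 2.1, 2.3, 1.6 and 1.5 CPM in RYGB WAT, against 5.1, 1.7, 2.8, 1.9 and 1.7 CPM in sham WAT. Serpinc1 had 0.8, 1.7, 0.6 and 2.3 CPM in RYGB WAT, against 3.8, 1.4, 1.5, 1.3 and 0.6 CPM in sham WAT. Neither passed the test (log2 fold changes −0.27 and −0.18), and both overlapped.

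Hepatocyte markers were listed in WAT as well, 10 of 10. Alb had 54.1, 63.3, 61.3 and 65.6 CPM in RYGB WAT, against 272.6, 102.3, 121.8, 126.4 and 62.7 CPM in sham WAT, and fell by 0.99 on the log2 scale (limma adjusted p = 0.0325). Sham 1, highest for each of the 6 members among sham libraries, was highest for Alb. Ambp, Ahsg, Tat and Uox, hepatocyte genes too, fell with 0.1 to 1.7 CPM in RYGB and 0.5 to 12.3 CPM in sham WAT. Cyp2e1, which adipocytes also express, rose (log2 fold change 3.17) and is the largest term in each library of the list's sum of 2797 to 16513 CPM in RYGB and 494 to 1596 CPM in sham WAT. Per 1000 CPM of Alb, Fga stood at 18.5, 134, 27.7 and 22.9 in RYGB WAT, against 24.6, 25.4, 18.9, 32.4 and 25.5 in sham WAT. Fgg stood at 61.6 in RYGB 2 and at 11.1 to 32.3 in the other WAT libraries of both groups, while Fgb in RYGB 2, at 30.0, lay within the 19.6 to 44.4 of the others. RYGB 2 was thus highest for Fga and Fgg and not for Fgb, and in the liver of the same animal Fga stood at 1314 per 1000 CPM of Alb, with Fgb at 994 and Fgg at 1758, each the highest of the 9 livers. That liver also had the lowest Alb of the 9, 18705 CPM, which raises these ratios. The part of hepatocyte transcripts in the WAT values was not tested.

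Other genes of clot control were also listed in WAT. Among the fibrinolysis genes, Plau (−1.73) and Plat (−1.05), which encode plasminogen activators, and the annexin gene Anxa2 (−1.36) fell on the log2 scale (limma adjusted p = 0.00506, 0.0131 and 0.0162). Of 10 anticoagulant and inhibitor genes 6 fell, among them Serpine2 (−1.70), Pros1 (−0.93), Tfpi2 (−1.45) and Tfpi (−0.73). F3, tissue factor, which starts clotting, fell to 29.2 to 61.5 CPM in RYGB, against 99.8 to 119.9 CPM in sham WAT (−1.37 ± 0.20, limma adjusted p = 0.000763). Of 5 other clotting factor genes F8 (−1.29) and Kng1 (−0.96) fell. In WAT 26.3% of all genes fell and 14.3% rose. The length slopes were −0.34 to 0.014 in RYGB and 0.091 to 0.19 in sham WAT and did not overlap.

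In muscle 2 members were listed, both at 2.1 CPM or less. Fgb had 0, 0, 1.8 and 1.2 CPM in RYGB, against 1.8, 1.3, 2.1 and 0.9 CPM in sham muscle. RYGB 1 and 2 were listed at 0 and the other libraries were alike. Alb had 0.7, 0.2, 13.2 and 12.4 CPM in the same RYGB libraries and 16.5, 10.4, 16.5 and 10.3 CPM in the sham libraries. In the 6 libraries with more than 10 CPM of Alb, Fgb stood at 136 and 96.8 per 1000 CPM of Alb in RYGB and at 109, 125, 127 and 87.4 in sham muscle; the part of hepatocyte transcripts in Fgb was not tested. F5 had 1.4, 1.3, 1.2 and 1.6 CPM in RYGB, against 0.9, 0.3, 1.0 and 0.4 CPM in sham muscle. Its groups were apart, as were 1.91% of all genes with higher RYGB values, and its log2 fold change of 0.55 did not pass (limma adjusted p = 0.596). F5 reached 1 CPM, the level for listing, in all RYGB libraries but in sham 3 alone among sham libraries. It was thus listed through the group where it was higher, which favours groups that lie apart. Red cell and platelet markers, 6 of 8 listed, summed to 88.0 to 414 CPM in RYGB and 28.3 to 74.2 CPM in sham muscle, and 3 of the 6 were apart and higher; their part in the F5 values was not tested. No gene of the 11594 passed in muscle (0%), and 812, or 7%, had an unadjusted limma p below 0.05.

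Whether the effect of RYGB differed between liver and another tissue was tested with the animal as a block, over the animals that gave both. For WAT (4 RYGB and 4 sham animals) the effect was smaller than in liver by 4.38 ± 0.67 on the log2 scale for Fga, 3.39 ± 0.53 for Fgb and 4.98 ± 0.66 for Fgg (SE; limma adjusted p = 0.00228, 0.00244 and 0.000923). These 3 of 6 members were called, against 12.9% of the 9707 shared genes. For muscle (4 RYGB and 3 sham animals) 1 of 2 members was called, Fgb at −3.67 ± 0.66 (SE; limma adjusted p = 0.0459), against 0.303% of 9240 genes; with a pseudocount of 0.1, or without the animal of liver RYGB 2, RYGB 3, sham 3 or sham 4, it was not. For F5 the difference from liver was −1.53 ± 0.38 in jejunum (limma adjusted p = 0.12), 1.10 ± 0.38 in duodenum (0.0569) and 1.52 ± 0.40 in muscle (0.0642). None of the 2 members tested in duodenum, jejunum or ileum was called, against 18.9%, 0.0673% and 0% of the shared genes.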

How the data were processed

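The authors deposited 1 CPM table per tissue, with values to 1 decimal. HTSeq and GRCm38 are named in the submitters' processing notes; aligner, annotation and strand setting were not given in the sources used here. Repeated lines (339 in ileum, 374 in WAT) and lines with no identifier were dropped. The members and gene lists were chosen with earlier results of these data known.

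Each tissue was fitted alone with limma 3.58.1 in R 4.3.3 (lmFit and robust, trended eBayes) on log2(CPM + 1), two-sided, threshold 0.05; no count test was run, since whole reads showed in only 5 of 9 liver libraries. The fits were tested on simulated data. Named list genes are those past the threshold (up to 4 by smallest adjusted p) and up to 2 of highest CPM per list; other genes named were chosen after their values were seen. Exon lengths and gene positions are from GENCODE vM21, promoter windows from RefSeq. Tables were prepared in Python 3.11.15 with pandas 2.3.3 and drawn with matplotlib 3.10.9. Alternatives were a pseudocount of 0.1, median-of-ratios scaling, a mean CPM of at least 5, library weights, plain eBayes, a replicate block, each library left out and a liver depth term. Added after seeing the data were liver depth classes alone, the depth term with scaling, removal of a lowess trend with exon length, and animals left out of the tissue differences. Animals are the replicates. One result among the fibrinolysis genes of WAT is not reported here.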

Additional observations from a re-analysis of the deposited data

Results flagged for a closer look

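Of 44 groups of 4 or 5 libraries, 3 held a library far from the others of its group. The measure was Dixon's ratio on CPM, the gap to the next value over the range of the group. Chance gives about 1 in 20 where values are normal and groups independent, which was not tested here. The 3 are Fga in WAT of RYGB 2 (8.5 CPM, against 1.0 to 1.7 CPM in the other 3 RYGB libraries), Fgb in WAT of sham 1 (6.5 CPM, against 2.0 to 3.3 CPM in the other sham libraries) and Serpinc1 in WAT of sham 1 (3.8 CPM, against 0.6 to 1.5 CPM). The flags of sham 1 come from the same library, and their ratios of 0.711 and 0.719 lie close to the critical value of 0.71. RYGB 2 also had the highest acute phase sum of the WAT libraries, 14802 CPM, against 1553 to 3605 CPM in the other RYGB and 1510 to 1978 CPM in the sham libraries.

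The effect of RYGB differed between WAT and liver by −4.38 for Fga, −4.98 for Fgg and −3.39 for Fgb on the log2 scale, and between muscle and liver by −3.67 for Fgb, each by a test of the difference. In WAT and muscle these genes stood at 8.5 CPM or less.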

How the results depend on the processing

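In all 20 alternatives run in liver, Fga, Fgb and Fgg kept a log2 fold change above 0, from 2.02 to 4.16, and were past the threshold in 12. The main count of 3 members called in liver became 0 with the replicate block and 0 without the trend and robust options (adjusted p of 0.051 to 0.053), 7 with library weights, 6 with the depth term, 5 with the depth term and scaling, 5 in the libraries of known depth alone, and 0 to 5 with any 1 library left out. Over all liver genes, 476 were called, and 3 to 3258 in the alternatives. Replicate numbers name different animals in the 2 operations, so the block pairs nothing. In WAT the count of 1 became 0 with scaling, with a mean CPM of at least 5 (Plg is then not tested), with library weights and with the length trend removed, and 0 to 1 with a library left out. Of the tissue differences, the count for duodenum became 1 with a pseudocount of 0.1 and 0 to 1 with an animal left out. For muscle the count of 1 became 0 with that pseudocount, 2 with scaling and 0 to 2 with an animal left out. The difference between WAT and liver was called for 3 members, and for 3 to 4 with an animal left out. The other counts kept their value in the alternatives run. Some uncalled values changed sign: F9 in liver (0.50 in the libraries of unknown depth; −0.21 to 0.063 with a library left out), F5 in duodenum (−0.041 scaled, −1.13e-05 with the block, −0.087 with the length trend removed, −0.021 to 0.21 with a library left out), Plg in ileum (−0.096 with the block, −0.032 with weights, −0.17 to 0.42), Serpinc1 in ileum (−0.42 to 0.046), F5 in WAT (0.096 with the length trend removed) and Serpinc1 in WAT (0.24 with it removed, −0.36 to 0.054). The causes were not tested. Depth limits values under 1 CPM, and intervals over so few libraries are wide.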
